A study of Rattus norvegicus with 12 samples.

Results

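Potassium channel subunits were described here across ventral dentate gyrus libraries from rats of 2 Flinders lines. Every gene symbol in the count files that starts with Kcn was taken, and a symbol was kept where it reached at least 1 CPM (counts per M gene counts, M for mega) in 3 or more of the 12 libraries. This left 75 of 91 Kcn symbols as members, among 17172 symbols in the files and 11986 that pass the same cut. The members were thus selected on their measured CPM in these libraries, and their presence is a description and not a finding.

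The 4 groups held 3 libraries each. LAC responders and LAC non-responders were male rats of the Flinders Sensitive Line (FSL), a Sprague-Dawley-derived line bred as a model of depression, that drank L-acetyl-carnitine (LAC, an acetylated carrier of fatty acids) for 7 days at 0.3% w/v, or about 210 mg/kg daily. FSL vehicle rats were males of the same line on tap water. FRL vehicle rats were males of the Flinders Resistant Line (FRL), the comparison line, on tap water. Total RNA from about 130 mg of dissected tissue was sequenced as 100 bp single reads after ribosomal RNA depletion. Titles number the libraries 1 to 3 within a group. Not given in the sources used here were the age of the rats, the number of animals behind a library and the criterion for response. The p-values therefore measure only the spread between these libraries, which may be technical in part.

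Potassium channels let potassium leave cells down its gradient, which sets the resting potential, ends action potentials and spaces them. Pore-forming subunits fall into voltage-gated (Kv), calcium- or sodium-activated, inward-rectifier (Kir) and 2-pore-domain (K2P, or leak) families, and smaller auxiliary subunits change their gating or their place in the cell. In the hippocampus, A-type Kv4 channels act in dendrites, Kv1 channels in axons and terminals, and Kv7 channels carry the M current that restrains repeated firing. Glia take up potassium through Kir channels, and the choroid plexus epithelium, which makes cerebrospinal fluid, has potassium channels of its own.

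Gene counts summed to between 5.91 and 8.14 M per library, and members took 0.424% to 0.534% of them. A count of 3, used as the detection floor, was worth 0.369 to 0.508 CPM, which covers counting error only. The granule cell marker Prox1 was at 51.6 to 129 CPM in 10 libraries. It stood at 9.19 CPM in responder 1 and 10.4 CPM in FRL vehicle 2. Summed granule neuron markers (9 of 12 listed genes in the files, Prox1 among them) set responder 1 less apart. They were 453 CPM in responder 1 and 312 CPM in FRL vehicle 2, against 482 to 659 CPM elsewhere. Summed thalamus markers (9 of 10 listed genes in the files) reached 994 CPM in responder 1, against 389 to 486 CPM elsewhere. Summed choroid plexus markers (14 in the files, with Otx2 at 0 throughout) were 171 to 231 CPM in responders, 231 to 8446 CPM in non-responders, 151 to 5131 CPM in FSL vehicle and 139 to 180 CPM in FRL vehicle. The high ends belong to non-responder 1 and FSL vehicle 1, and FSL vehicle 3 stood at 682 CPM. Summed markers of meninges and fibroblasts (14 in the files, with Col1a2 at 0 throughout) were 120 to 353 CPM in responders, 582 to 835 CPM in non-responders, 388 to 3823 CPM in FSL vehicle and 210 to 501 CPM in FRL vehicle, highest in FSL vehicle 3. In bulk tissue, fewer cells of a type and less RNA per cell cannot be told apart.

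Most members were present in all groups at similar levels. Of the 75 members, 70 reached 1 CPM in all 12 libraries, and no member reached it in 1 group alone. The other members were Kcnj13 (in 10 libraries), Kcne1l (in 7), Kcnj5 (in 6), Kcnk5 (in 4) and Kcnv2 (in 3). The highest of the 4 group means lay within 1.5 times the lowest for 58 members. It was over 2 times the lowest for 4: Kcnj13, Kcne2, Kcnk5 and Kcnv2. Kcnv2 was the member just inside the cut, with a third-highest library at 1.04 CPM. Just outside it, the third-highest library stood at 0.975 CPM for Kcne4, 0.860 CPM for Kcnn4 and 0.812 CPM for Kcnmb1.

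**Figure D1:**
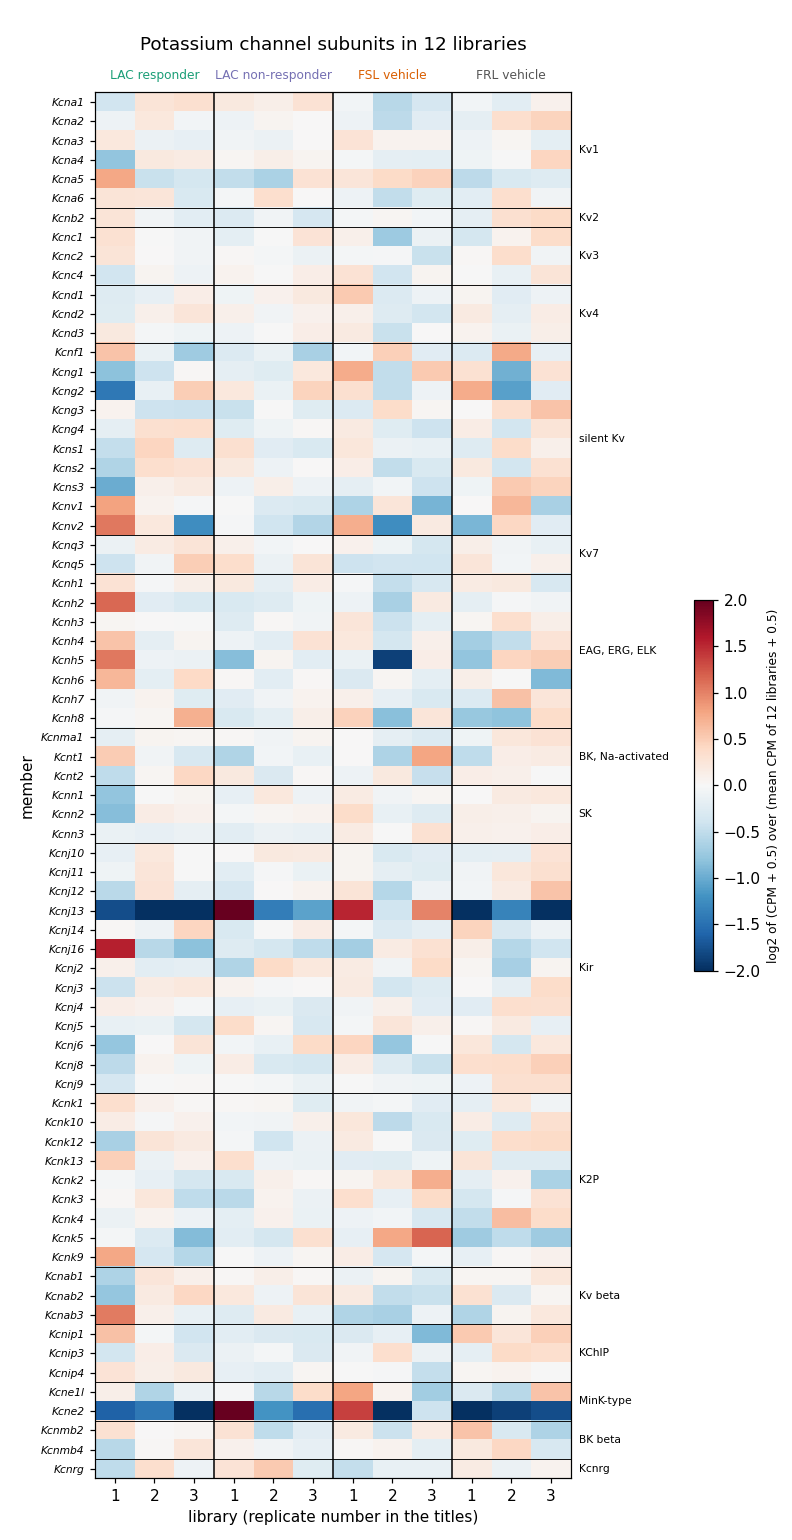
Level of 72 of the 75 members (rows, by subfamily) in each of the 12 libraries (columns, by group), as log2 of CPM + 0.5 over the member's mean CPM + 0.5, with the colour scale ending at -2 and 2. Most rows are pale, Kcnj13 and Kcne2 have the widest range, and responder 1 has both strong highs and strong lows.

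Fold changes below are log2 values ± standard error from an edgeR quasi-likelihood fit of all 12 libraries, with Benjamini-Hochberg adjustment over all 11750 genes tested. It tested 73 members, since Kcnj5 and Kcnv2 fell under its filter on low counts. FSL vehicle is the reference for both LAC groups and is also set against FRL vehicle, so these comparisons share its 3 libraries and are not independent.

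No member passed an adjusted p of 0.05 in FSL vehicle against FRL vehicle, where 0.0681% of all genes did. The smallest adjusted p among members was 0.238, for Kcnk5, and neither DESeq2 nor limma-voom called a member, while DESeq2 called 168 genes in all. At an unadjusted p of 0.05, edgeR counted 3 members higher in FSL vehicle (4.11% of those tested, against 9.35% of all genes) and 6 lower (8.22%, against 4.53%). The higher ones were Kcnk5, Kcnj13 and Kcnk2, and the lower ones were Kcnip1, Kcna2, Kcnma1, Kcnq5, Kcnj8 and Kcnj11. The libraries of FSL vehicle and FRL vehicle did not overlap for 9 members (12.3%, against 13.8% of all genes). Fold changes were positive for 17 of the 73 members (23.3%, against 48.4% of all genes), with a median of -0.18 over members and -0.01 over all genes. That median was -0.06 with the meningeal marker level as a covariate and -0.31 without the 3 libraries of high choroid plexus markers, which leaves FSL vehicle 2 as the only library of its group. The count of 9 members at an unadjusted p of 0.05 was 4 without FSL vehicle 3 and 5 without FRL vehicle 3. It was 12 without FSL vehicle 1, 12 without FRL vehicle 1 and 15 with the granule neuron marker level as a covariate.

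In LAC responders against FSL vehicle, no member passed the adjusted threshold, as was so for all genes (0%), and the smallest adjusted p was 0.266, for Kcnj13. DESeq2 and limma-voom also called no member, although DESeq2 called 181 genes in all, and edgeR called 349 genes and no member without FSL vehicle 1. At an unadjusted p of 0.05, edgeR counted 6 members higher in responders (8.22%, against 4.61% of all genes) and 4 lower (5.48%, against 9.17%). Kcnip4, Kcnab3, Kcnh1, Kcnq5, Kcna1 and Kcnip1 were on the higher side, and Kcnj13, Kcnn3, Kcnk5 and Kcnk2 on the lower side. The groups did not overlap for 6 members (8.22%, against 12.5% of all genes). Fold changes were positive for 48 of 73 members (65.8%, against 52.0% of all genes), and the members' median was 0.11, against 0.01 over all genes. Every responder library lay below every FSL vehicle library in summed meningeal markers, so the meningeal covariate and group cannot be fully told apart. With that covariate the members' median was -0.03. It was 0.04 without FSL vehicle 2, 0.05 without responder 2, 0.06 without FSL vehicle 3, 0.18 without responder 1 and 0.23 without FSL vehicle 1. Without the 3 libraries of high choroid plexus markers it was 0.24, again with FSL vehicle 2 alone in its group. The count at an unadjusted p of 0.05 was 17 without responder 1 and 4 without FSL vehicle 3.

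In LAC non-responders against FSL vehicle, the edgeR count after adjustment was again 0 for members and 0% of all genes, with a smallest adjusted p of 0.976, and DESeq2 (2 genes in all) and limma-voom called no member. Kcnq5 and Kcna1 were higher in non-responders at an unadjusted p of 0.05 (2.74% of members, against 1.89% of all genes) and Kcnn3 was lower (1.37%, against 2.32%). The count of 3 at that threshold was 10 without FSL vehicle 1 and 5 without non-responder 2. With the replicate number as a block it was 5 in the fit of 12 libraries and 7 in a fit of these groups alone. The libraries of these groups did not overlap for 8 members (11%, against 7.8% of all genes). These were Kcnq5, Kcna1, Kcna2, Kcna4 and Kcna6, with non-responders above, and Kcnn3, Kcna3 and Kcnb2, with non-responders below. The members' median fold change was 0.06, with 45 of 73 positive (61.6%, against 48.9% of all genes). It was -0.02 without FSL vehicle 2, 0.01 without FSL vehicle 3, 0.02 without non-responder 3, 0.19 without FSL vehicle 1 and 0.21 with FSL vehicle 2 as the only library of its group, without the 3 libraries of high choroid plexus markers.

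Between LAC responders and LAC non-responders, no member passed after adjustment with edgeR, DESeq2 or limma-voom (0% of all genes with edgeR), and the smallest adjusted p was 0.992. At an unadjusted p of 0.05, edgeR placed Kcnip4 higher in responders (1.37% of members, against 1.18% of all genes), and Kcnj13 and Kcne2 lower (2.74%, against 1.96%). That count of 3 was 0 without non-responder 1, 6 without responder 3 and 8 with the meningeal covariate. Responders and non-responders did not overlap for Kcnj13, Kcnip4 and Kcnj4, 4.11% of members against 11.3% of all genes. Of the 73 fold changes 39 were positive (53.4%, against 50.3% of all genes), and their median was 0.02.

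The 9 FSL-line libraries together were also set against the 3 FRL vehicle libraries. No member passed after adjustment with edgeR (smallest adjusted p 0.570) or with DESeq2 or limma-voom, against 0.162% of all genes with edgeR and 47 genes with DESeq2. Kcnk5 was on the higher side at an unadjusted p of 0.05 (1.37% of members, against 3.8% of all genes). Kcnip1, Kcnj8, Kcnj9, Kcng3, Kcna2 and Kcnma1 were on the lower side (8.22%, against 2.86%). The count of 7 over both sides was 14 without FRL vehicle 1, 2 without FRL vehicle 2 and 3 without FRL vehicle 3. Kcnj8 alone did not overlap (1.37% of members, against 1.94% of all genes). In the test for any difference among the 4 groups, the adjusted count of members was 0 with edgeR (smallest adjusted p 0.492), DESeq2 and limma-voom, while edgeR called 0.0255% of all genes and DESeq2 184 genes. That test counted 5 members at an unadjusted p of 0.05 (6.85%, against 9.02% of all genes): Kcnj13, Kcnn3, Kcnk5, Kcnip1 and Kcne2. It counted 9 without responder 1, 10 without FSL vehicle 1 and 13 without FRL vehicle 1.

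**Figure D2:**
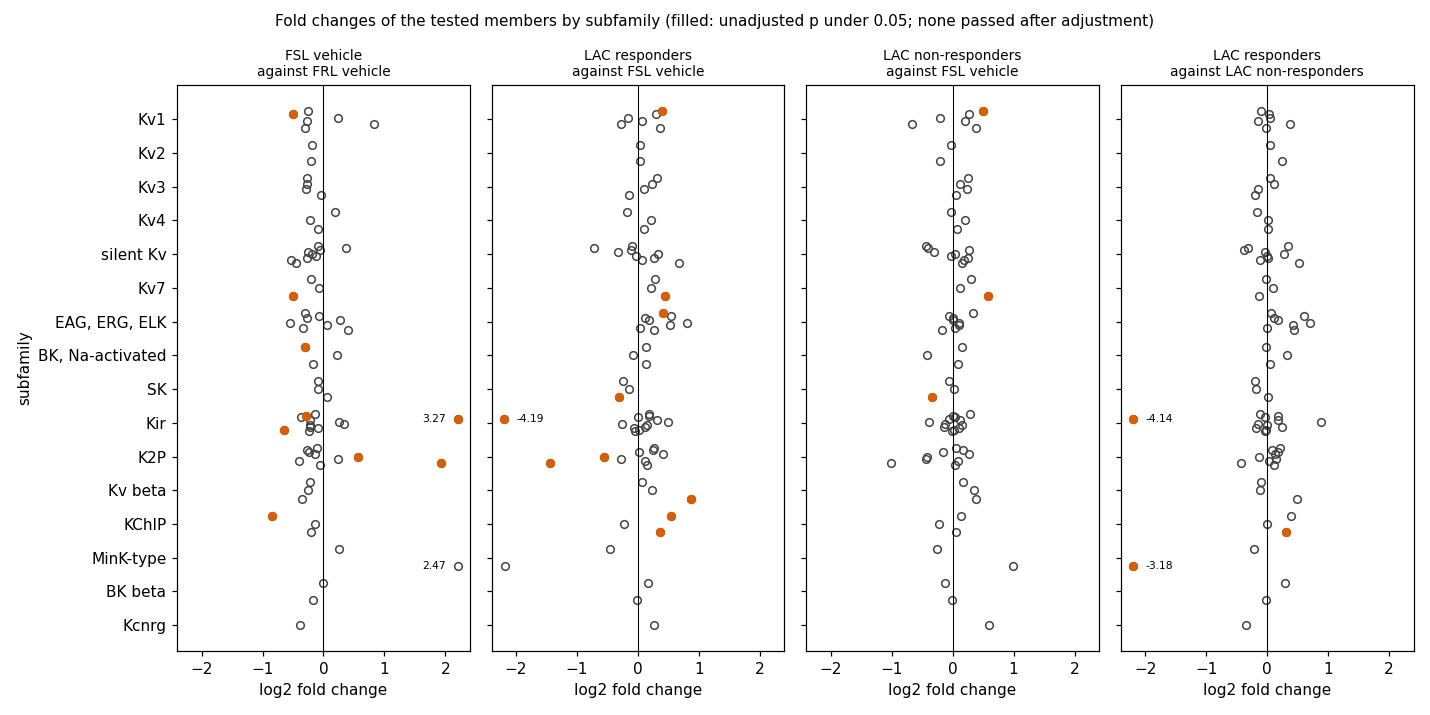
Log2 fold changes (x axis) of the 73 tested members by subfamily (y axis) in 4 comparisons, 1 point per member, filled where the unadjusted p is under 0.05. Points past 2.2 are drawn at the edge with their value, and no member passed after adjustment in any panel.

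The Kv1 (Shaker) subunits form low-threshold channels of axons and nerve terminals, and 6 of 8 Kv1 symbols were members. Kcna1, which sits beside the nodes of myelinated axons, had 75.6, 118 and 124 CPM in responders, 113, 108 and 121 CPM in non-responders, 95.6, 67.1 and 78.5 CPM in FSL vehicle and 95.6, 85.7 and 105 CPM in FRL vehicle. All 3 non-responder libraries lay above all FSL vehicle libraries, with a log2 fold change of 0.50 ± 0.18, while responder 1 lay within the FSL vehicle range. For Kcna2, its usual partner in the same channels, the values were 115, 143 and 119 CPM in responders, 116, 128 and 124 CPM in non-responders, 115, 85.5 and 106 CPM in FSL vehicle and 110, 156 and 168 CPM in FRL vehicle.

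Kcna2 gave -0.50 ± 0.16 in FSL vehicle against FRL vehicle, although FSL vehicle 1 lay above FRL vehicle 1. Kcna6, another Kv1 pore subunit, gave 0.38 ± 0.19 in non-responders against FSL vehicle, and 0.24 without non-responder 2. Kcna4, the Kv1 subunit that inactivates rapidly, gave 0.21. Kcna4 was at 65.9 CPM in responder 1, against 99.8 to 153 CPM elsewhere. Kcna5, a subunit best known from vessel muscle and heart, stood at 4.54, 5.03 and 5.32 CPM in FSL vehicle, against 2.44, 2.93 and 3.07 CPM in FRL vehicle. Those libraries did not overlap, the log2 fold change was 0.82 ± 0.39, and the unadjusted edgeR p was 0.0604. Summed oligodendrocyte markers (12 in the files) were 5895 to 11019 CPM in responders, 7441 to 12223 CPM in non-responders, 4339 to 5979 CPM in FSL vehicle and 5447 to 7748 CPM in FRL vehicle, so they too were higher in all non-responders than in all FSL vehicle libraries. Their part in the Kv1 values was not tested.

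The cytoplasmic Kv beta subunits, which bind Kv1 channels, were all 3 members. Kcnab3 had 47.7, 24.5 and 20.7 CPM in responders, 19.1, 26.1 and 20.6 CPM in non-responders, 14.9, 14.4 and 21.3 CPM in FSL vehicle and 14.9, 23.7 and 26.4 CPM in FRL vehicle. Responder 1 was the highest library, and the log2 fold change of 0.87 ± 0.32 in responders against FSL vehicle was 0.42 without it. In responders against non-responders Kcnab3 gave 0.50 ± 0.31, and 0.04 without responder 1. Kcnab1 and Kcnab2 were lowest in that same library, at 160 and 140 CPM, against 198 to 290 CPM and 171 to 321 CPM in the others.

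The Kv2 (Shab) subunits carry the delayed rectifier of cell bodies, and the Kv3 (Shaw) subunits allow fast firing, as in parvalbumin interneurons. All 6 symbols of both subfamilies were members. Kcnb2 was at 32.5, 37.5 and 31.2 CPM in non-responders, just under the 38.5, 40.5 and 38.1 CPM of FSL vehicle. Among the Kv3 subunits, Kcnc1 ran from 47.5 to 102 CPM, Kcnc2 from 121 to 209 CPM and Kcnc4 from 62.3 to 99.8 CPM. FSL vehicle 2 was the lowest library for Kcnc1 and Kcnc4. Kcnc1, Kcnc2 and Kcnc4 gave -0.27, -0.27 and -0.03 in FSL vehicle against FRL vehicle, none at an unadjusted p under 0.05.

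The Kv4 (Shal) subunits make the A-type current of dendrites. Kcnd2, its main subunit in hippocampal principal cells, averaged 226 ± 36.9 CPM in responders, 225 ± 15.0 CPM in non-responders, 196 ± 34.0 CPM in FSL vehicle and 228 ± 29.5 CPM in FRL vehicle (SD, n = 3 each). Kcnd3, found largely in interneurons, had group means from 135 to 145 CPM. For both genes the libraries of all groups overlapped.

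Kv4 channels carry interacting proteins (KChIPs) that bring them to the membrane and shape their inactivation, and 3 of 4 KChIP genes were members. Kcnip1, marked in interneurons, had 28.8, 18.6 and 14.6 CPM in responders, 16.4, 15.4 and 15.4 CPM in non-responders, 15.6, 17.0 and 10.1 CPM in FSL vehicle and 27.7, 22.5 and 26.7 CPM in FRL vehicle. Every FSL vehicle and non-responder library lay below every FRL vehicle library, while responder 1 lay above them all. The log2 fold change was -0.85 ± 0.24 in FSL vehicle against FRL vehicle (adjusted edgeR p 0.251) and -0.62 ± 0.19 in all FSL-line groups against FRL vehicle (adjusted edgeR p 0.570). In responders against non-responders it was 0.39 ± 0.24, and 0.08 without responder 1. In the RefSeq order of genes Kcnip1 overlaps Kcnmb1, and the strand setting of the counting is not given, so it is uncertain how reads from any sequence they share were counted. Kcnmb1 had 1 to 14 counts per library, and Kcnip1 had 72 to 235. Summed interneuron markers (11 in the files, with Npy at 0 throughout) were 917 to 1129 CPM in responders, highest in responder 1, 894 to 930 CPM in non-responders, 741 to 878 CPM in FSL vehicle and 904 to 1132 CPM in FRL vehicle. Responders and non-responders thus overlapped FRL vehicle in these sums, while every FSL vehicle sum lay below every FRL vehicle sum. Their part in the Kcnip1 values was not tested.

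Kcnip4, a KChIP of principal neurons, had 40.4, 36.2 and 38.1 CPM in responders, 29.7, 28.7 and 34.3 CPM in non-responders, 32.9, 32.6 and 23.7 CPM in FSL vehicle and 34.1, 35.1 and 33.0 CPM in FRL vehicle. Responders lay above every other library. The log2 fold change was 0.36 ± 0.12 in responders against FSL vehicle (adjusted edgeR p 0.278, and 0.22 without FSL vehicle 3) and 0.31 ± 0.12 in responders against non-responders (adjusted edgeR p 0.992). Kcnip3, which also acts as a calcium-sensing transcriptional repressor, averaged 60.5 ± 11.6 CPM in responders, 60.8 ± 5.30 CPM in non-responders, 70.7 ± 13.1 CPM in FSL vehicle and 77.8 ± 15.7 CPM in FRL vehicle (SD, n = 3 each). Kcnip2, the fourth KChIP gene, had 6 counts over all 12 libraries and is no member.

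Electrically silent subunits form no channel alone and join Kv2 subunits to change their gating, and all 10 were members. Kcnv1 had 90.7, 54.3 and 50.8 CPM in responders, 51.5, 42.7 and 41.8 CPM in non-responders, 33.4, 61.5 and 26.9 CPM in FSL vehicle and 51.7, 82.4 and 32.7 CPM in FRL vehicle. The libraries low in Prox1, responder 1 and FRL vehicle 2, were its highest. Kcnf1 was highest in those same libraries, at 87.6 CPM in responder 1 and 99.6 CPM in FRL vehicle 2, against 35.9 to 82.7 CPM elsewhere. Kcng2 was lowest in them, at 4.53 CPM and 5.87 CPM, against 9.16 to 22.0 CPM elsewhere. The part of granule cells in these values was not tested. Kcng3 gave -0.47 ± 0.19 in all FSL-line groups against FRL vehicle, and its fold changes in FSL vehicle against FRL vehicle, responders against FSL vehicle and non-responders against FSL vehicle were -0.26, -0.33 and -0.30. Kcns3 was at 13.6 CPM in responder 1, against 20.4 to 39.6 CPM in the others.

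The Kv7 subunits, among them Kcnq3 and Kcnq5, carry the M current in neurons. Kcnq1, the heart and epithelial subunit, was not a member. Kcnq5 had 92.0, 117 and 173 CPM in responders, 158, 114 and 148 CPM in non-responders, 92.2, 94.8 and 93.1 CPM in FSL vehicle and 146, 119 and 132 CPM in FRL vehicle. The 3 FSL vehicle libraries lay close together and below every non-responder and FRL vehicle library, while responder 1 was level with them. The log2 fold change was -0.50 ± 0.20 in FSL vehicle against FRL vehicle (adjusted edgeR p 0.294) and 0.58 ± 0.20 in non-responders against FSL vehicle (adjusted edgeR p 0.976). In responders against FSL vehicle it was 0.45 ± 0.20, and 0.15 without responder 3. With the meningeal covariate it was -0.31 in FSL vehicle against FRL vehicle and 0.20 in responders against FSL vehicle. Kcnq3 averaged 345 ± 45.6 CPM in responders, 325 ± 19.0 CPM in non-responders, 298 ± 45.1 CPM in FSL vehicle and 314 ± 31.3 CPM in FRL vehicle (SD, n = 3 each), with overlapping groups. Kcnq1 was at 6.07 CPM in non-responder 1 and 3.73 CPM in FSL vehicle 1, the libraries highest in choroid plexus markers, and at most 0.70 CPM elsewhere.

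**Figure D3:**
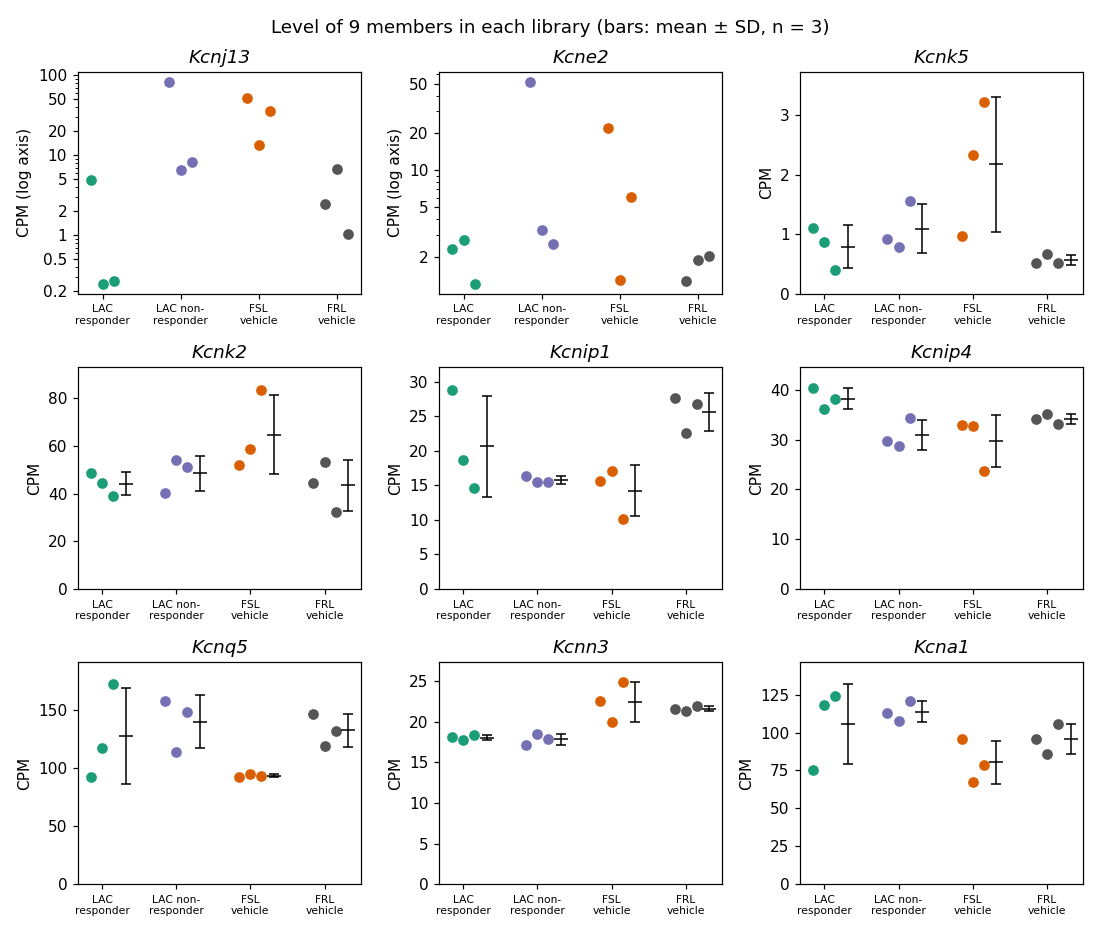
CPM (y axis) of 9 members in each library of each group (x axis), with the mean ± SD of 3 libraries drawn beside the points except for Kcnj13 and Kcne2, which have a log axis. The 3 FSL vehicle points of Kcnq5 nearly coincide, and all responder points of Kcnip4 lie above the other groups.

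The EAG, ERG and ELK channels of the Kcnh genes shape slow voltage-dependent potassium currents, and all 8 were members. Kcnh2, an ERG subunit known for its part in cardiac repolarization, had 68.4 CPM in responder 1, against 19.2 to 34.7 CPM in the other libraries. Its log2 fold change in responders against non-responders was 0.60 ± 0.35, and -0.05 without responder 1. Kcnh5, an EAG subunit, had 65.2, 28.9 and 28.6 CPM in responders, 16.9, 32.0 and 26.6 CPM in non-responders, 28.2, 8.13 and 34.2 CPM in FSL vehicle and 17.6, 41.9 and 43.6 CPM in FRL vehicle. Its highest library was responder 1 and its lowest FSL vehicle 2, and groups overlapped throughout. The summed thalamus markers were highest in responder 1, as given above, with Tcf7l2 at 156 CPM and Slc17a6 at 274 CPM in that library. Their part in the Kcnh values was not tested.

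Kcnh1, the other EAG subunit, had 78.9, 63.2 and 69.9 CPM in responders, 73.6, 57.0 and 71.2 CPM in non-responders, 63.1, 45.9 and 51.2 CPM in FSL vehicle and 72.4, 73.3 and 51.4 CPM in FRL vehicle. Responders lay just above FSL vehicle without overlap, at 0.41 ± 0.16 (adjusted edgeR p 0.324), and non-responders overlapped it, at 0.33 ± 0.16. Kcnh3, an ELK subunit of the forebrain, stayed between 82.8 and 141 CPM, and Kcnh7, an ERG subunit of neurons, between 68.2 and 127 CPM. All 8 Kcnh fold changes were positive in responders against FSL vehicle, where 65.8% of all tested members and 52.0% of all genes were, with a median of 0.33. Responder 1 was the highest of the 12 libraries for Kcnh1, Kcnh2, Kcnh4, Kcnh5 and Kcnh6. Responders 2 and 3 lay within the FSL vehicle range for Kcnh2. Whether all 8 stay positive without responder 1 was not checked. Of the 8, 1 was higher at an unadjusted p under 0.05, as were 4.61% of all genes.

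Channels opened by calcium or sodium include BK (Kcnma1), the sodium-activated Kcnt1 and Kcnt2, and the SK channels that follow spikes with an afterhyperpolarization. Kcnn3, an SK subunit, had 18.1, 17.7 and 18.4 CPM in responders, 17.2, 18.5 and 18.0 CPM in non-responders, 22.6, 20.0 and 24.9 CPM in FSL vehicle and 21.6, 21.3 and 22.0 CPM in FRL vehicle. Both LAC groups lay below every FSL vehicle and FRL vehicle library. The log2 fold change was -0.31 ± 0.10 in responders against FSL vehicle (adjusted edgeR p 0.266) and -0.33 ± 0.10 in non-responders against FSL vehicle (adjusted edgeR p 0.976), and FSL vehicle against FRL vehicle gave 0.06. Its SD within groups, 0.08 on the log2 scale, was the smallest of the tested members, whose median was 0.30, against 0.18 over all genes. Without the 3 libraries of high choroid plexus markers, which leaves FSL vehicle 2 as the only library of its group, the fold changes were -0.15 and -0.13, where that lone library is assumed to vary like the other groups.

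The other SK members, Kcnn1 and Kcnn2, did not share that pattern of levels. Kcnn2, at 24.0 CPM in responder 1, had 36.5 to 56.5 CPM elsewhere, and Kcnn1 had 8.09 CPM in responder 1 and 12.7 to 16.6 CPM elsewhere. Kcnma1, the BK pore, had 288, 337 and 333 CPM in responders, 330, 308 and 336 CPM in non-responders, 325, 287 and 268 CPM in FSL vehicle and 307, 381 and 398 CPM in FRL vehicle. FSL vehicle overlapped FRL vehicle, at -0.30 ± 0.11 (adjusted edgeR p 0.282), and -0.16 with the meningeal covariate. Its neuronal beta subunit Kcnmb4 had group means from 38.7 to 44.0 CPM, with overlapping groups. Kcnmb2, the beta subunit that makes BK channels inactivate, ran from 1.19 to 3.35 CPM. Kcnt1 ran from 43.7 to 116 CPM and Kcnt2 from 50.0 to 95.3 CPM, with all groups overlapping.

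The inward rectifiers were the largest subfamily, with 13 of 15 symbols as members. Kcnj13, an epithelial Kir channel at the apical side of the choroid plexus, had 4.90, 0.248 and 0.270 CPM in responders, 82.9, 6.59 and 8.34 CPM in non-responders, 52.6, 13.5 and 36.3 CPM in FSL vehicle and 2.44, 6.80 and 1.02 CPM in FRL vehicle. Responders 2 and 3 had 2 counts each, under the floor of 3. Every responder library lay below every non-responder and FSL vehicle library, and every FSL vehicle library above every FRL vehicle library.

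The log2 fold change of Kcnj13 was 3.27 ± 1.17 in FSL vehicle against FRL vehicle (adjusted edgeR p 0.277), -4.19 ± 1.25 in responders against FSL vehicle (adjusted edgeR p 0.266) and -4.14 ± 1.25 in responders against non-responders (adjusted edgeR p 0.992). Without responder 1 it was -6.94 in responders against FSL vehicle. With the choroid plexus marker level as a covariate these were 1.43, -2.61 and -2.05. Without non-responder 1, the library highest in those markers, responders against non-responders gave -2.02, and without responder 1 it gave -6.89. Ttr, the most abundant choroid plexus marker, had 31.9, 7.06 and 19.2 CPM in responders, 5388, 7.65 and 40.1 CPM in non-responders, 2783, 19.5 and 289 CPM in FSL vehicle and 16.7, 3.07 and 8.86 CPM in FRL vehicle. FSL vehicle 2 held 13.5 CPM of Kcnj13 at a choroid plexus sum of 151 CPM, within the FRL vehicle range and below the responder range. Its sum of meningeal and fibroblast markers was 1220 CPM, above every library but FSL vehicle 3. In those sums every responder library (120 to 353 CPM) also lay below every non-responder and FSL vehicle library. FSL vehicle and FRL vehicle overlapped in them. With the meningeal covariate, which partly follows group, the Kcnj13 fold changes kept their sign and moved less than with the choroid plexus covariate. Over all settings they ran from 1.43 to 4.23 in FSL vehicle against FRL vehicle. The range was -6.95 to -2.61 in responders against FSL vehicle and -6.89 to -2.02 in responders against non-responders. Beyond that covariate, the part of meningeal cells in the Kcnj13 values was not tested.

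Kcne2, a MinK-type subunit that serves apical potassium channels of the same epithelium, was the other member of this kind. It had 2.33, 2.73 and 1.21 CPM in responders, 51.5, 3.30 and 2.54 CPM in non-responders, 21.9, 1.29 and 6.02 CPM in FSL vehicle and 1.29, 1.87 and 2.04 CPM in FRL vehicle. Its 3 highest libraries were the 3 with the most Ttr. The log2 fold change in responders against non-responders was -3.18 ± 1.22 (adjusted edgeR p 0.992), -0.21 with the choroid plexus covariate and -0.48 without non-responder 1. Kcne1l, named Kcne5 in RefSeq and known as an inhibitory subunit, ran from 0.560 to 2.43 CPM without separating any groups.

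**Figure D4:**
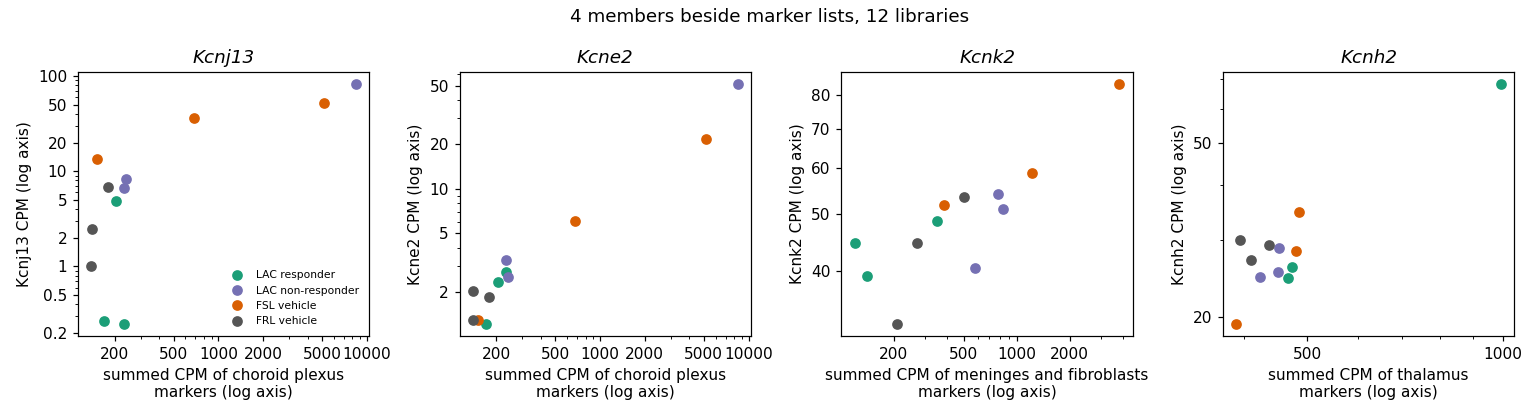
Level of Kcnj13, Kcne2, Kcnk2 and Kcnh2 (CPM, y axes) against the summed CPM of a marker list (x axes) in 12 libraries, all axes logarithmic and points coloured by group. Kcne2 is highest where choroid plexus markers are, Kcnj13 spreads widely among libraries with few of them, and responder 1 stands alone in the panel of Kcnh2.

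Kcnj10, the main potassium uptake channel of astrocytes, averaged 72.3 ± 9.47 CPM in responders, 78.2 ± 5.79 CPM in non-responders, 64.1 ± 8.59 CPM in FSL vehicle and 70.4 ± 13.8 CPM in FRL vehicle (SD, n = 3 each), with overlapping groups. Kcnj16, which pairs with it in glia, was at 46.7 CPM in responder 1 and 8.64 to 19.3 CPM elsewhere. Channels gated by G proteins (GIRK) mediate slow inhibition. Of their subunits, Kcnj3 had group means from 90.4 to 105 CPM and Kcnj6 from 219 to 249 CPM, with overlapping groups. Kcnj9, the third GIRK subunit, gave -0.26 ± 0.10 in all FSL-line groups against FRL vehicle and overlapped there. Kcnj5, the GIRK subunit better known from the heart, had 5 to 11 counts per library and was not tested.

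Kcnj8 and Kcnj11 form the pores of ATP-sensitive channels, Kcnj8 mainly in pericytes and vessel muscle. Kcnj8 had 1.96, 3.22 and 2.83 CPM in responders, 3.43, 2.37 and 2.26 CPM in non-responders, 3.41, 2.45 and 2.10 CPM in FSL vehicle and 3.99, 4.0 and 4.43 CPM in FRL vehicle. All 9 FSL-line libraries lay below the 3 FRL vehicle libraries, at -0.63 ± 0.22 (adjusted edgeR p 0.696). In FSL vehicle against FRL vehicle it gave -0.64 ± 0.29, and -0.20 with the meningeal covariate. Summed markers of endothelial cells and pericytes (14 in the files) were 394 to 434 CPM in responders, 399 to 676 CPM in non-responders, 447 to 1375 CPM in FSL vehicle and 337 to 434 CPM in FRL vehicle. Their part in the Kcnj8 values was not tested. Kcnj11 gave -0.29 ± 0.13 in FSL vehicle against FRL vehicle, with overlap. Kcnj4, a strong inward rectifier of neurons, had 110, 106 and 97.9 CPM in responders, against 89.9, 91.6 and 81.6 CPM in non-responders, without overlap, at 0.25 ± 0.14 and an unadjusted edgeR p of 0.0956.

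The K2P channels set the resting potential, and 9 of 13 were members. Kcnk5, an alkaline-activated channel best known from kidney epithelium, had 1.10, 0.867 and 0.405 CPM in responders, 0.924, 0.791 and 1.55 CPM in non-responders, 0.974, 2.32 and 3.22 CPM in FSL vehicle and 0.515, 0.667 and 0.511 CPM in FRL vehicle. These values rest on 3 to 23 counts per library. Kcnk5 reached 1 CPM in 1 responder, 1 non-responder, 2 FSL vehicle and 0 FRL vehicle libraries. Without its FSL vehicle libraries it would not be a member, so the cut itself favours high values in that group. FSL vehicle lay above FRL vehicle without overlap, at 1.92 ± 0.53 (adjusted edgeR p 0.238), and this was the only member value to pass in any setting tried, at 2.25 with an adjusted edgeR p of 0.0412 without FSL vehicle 1. In responders and non-responders against FSL vehicle Kcnk5 gave -1.44 ± 0.49 and -1.01 ± 0.48, the second being -0.62 without FSL vehicle 3. With the meningeal covariate, which partly follows group, the 3 values were 1.0, -0.30 and -0.50.

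Kcnk2, a stretch- and lipid-sensitive leak channel, had 48.6, 44.6 and 39.1 CPM in responders, 40.4, 54.2 and 51.0 CPM in non-responders, 51.9, 58.8 and 83.7 CPM in FSL vehicle and 44.5, 53.5 and 32.4 CPM in FRL vehicle. Its highest library, FSL vehicle 3, was also the highest in meningeal markers. In FSL vehicle against FRL vehicle Kcnk2 gave 0.57 ± 0.21, and 0.35 without FSL vehicle 3. In responders against FSL vehicle it gave -0.55 ± 0.21, -0.33 without FSL vehicle 3 and 0.01 with the meningeal covariate. Kcnk1, a weakly conducting leak channel, had 101, 85.3 and 81.3 CPM in responders, just above the 76.4, 77.8 and 68.7 CPM of FSL vehicle. Kcnk9, an acid-sensitive channel, was at 45.2 CPM in responder 1 and 17.5 to 29.2 CPM elsewhere.

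Promoter sequences were looked at for Kcnj13 and Kcnk5, the members whose fold change was past 1 on the log2 scale at an unadjusted p under 0.05 in both FSL vehicle against FRL vehicle and responders against FSL vehicle, and for Kcnn3, the member of smallest spread. Each line gives the 250 bases before the start of the gene in RefSeq on GRCr8, 5′ to 3′ on the gene's strand. Capitals mark TATAAA and the GC box GGGCGG, with both strands searched for each. The stretch for Kcnj13 lies at chr9:95518987-95519236 on the minus strand, that for Kcnk5 at chr15:4171375-4171624 on the plus strand and that for Kcnn3 at chr2:177234090-177234339 on the plus strand.
Kcnj13: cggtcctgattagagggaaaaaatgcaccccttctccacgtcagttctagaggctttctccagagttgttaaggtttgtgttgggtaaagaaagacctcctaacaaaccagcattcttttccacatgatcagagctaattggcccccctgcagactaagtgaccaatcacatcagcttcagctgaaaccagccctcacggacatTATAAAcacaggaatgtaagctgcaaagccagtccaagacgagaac
Kcnk5: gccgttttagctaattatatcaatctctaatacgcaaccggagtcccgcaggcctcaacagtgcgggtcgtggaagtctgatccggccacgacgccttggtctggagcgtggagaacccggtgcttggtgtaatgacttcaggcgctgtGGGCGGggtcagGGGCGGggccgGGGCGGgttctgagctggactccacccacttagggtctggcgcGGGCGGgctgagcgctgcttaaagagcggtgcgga
Kcnn3: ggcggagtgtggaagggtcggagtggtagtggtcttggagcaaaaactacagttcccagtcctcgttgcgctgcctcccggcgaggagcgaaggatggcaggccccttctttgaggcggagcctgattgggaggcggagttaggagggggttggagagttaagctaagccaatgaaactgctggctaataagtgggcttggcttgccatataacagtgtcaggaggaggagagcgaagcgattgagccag
The Kcnj13 stretch holds TATAAA with its first base 46 bases before the start, no GC box and 4 CpG sites, at 46.8% G and C. That of Kcnk5 has 4 GC boxes, 22 CpG sites and 62.8% G and C, and that of Kcnn3 has neither motif, 11 CpG sites and 57.2% G and C. In all, 51 members matched 56 promoters in the table. TATAAA stood in 1 of them (1.79%), that of Kcnj13, against 6.46% of 9385 promoters of genes that pass the same 1 CPM cut. The GC box stood in 30 (53.6%), against 58.0%. A match describes the letters and names no factor.

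Single libraries held the extremes of many members. Responder 1 held the highest value for 15 of the 73 tested members (20.5%, against 12.9% of all genes) and the lowest for 18 (24.7%, against 9.58%). FSL vehicle 2 was the lowest library for 20 members (27.4%, against 14.3% of all genes) and the highest for 0. FRL vehicle 3 was the highest for 15 (20.5%, against 8.37%). The median SD within groups was 0.30 on the log2 scale over the tested members and 0.18 over all genes, and 10 members exceeded 0.5.

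**Figure D5:**
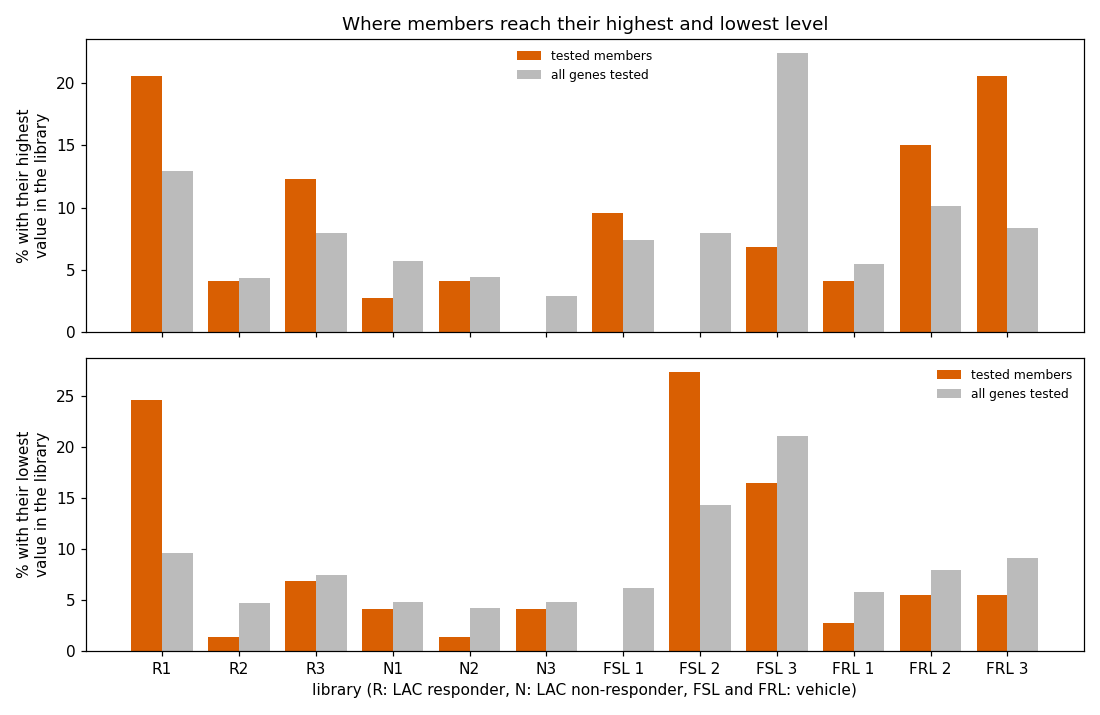
Percent of the 73 tested members and of all 11750 genes tested (bars, y axes) that have their highest (top) or lowest (bottom) value in each library (x axis). Responder 1 stands out at both ends, and FSL vehicle 2 holds the lowest value of 27.4% of members.

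Genes that work with potassium channels without being Kcn genes were followed through a list of 45 partners, of which 41 were in the files and 39 tested. It holds Kv-associated membrane proteins, scaffolds, sulfonylurea receptors, BK gamma subunits, regulating kinases and ligases, the sodium-potassium pump and the cation-chloride cotransporters. None passed after adjustment with edgeR in any of the 5 comparisons. At an unadjusted p under 0.05, 3 of the 39 were higher and 1 lower in FSL vehicle against FRL vehicle, where 9.35% of all genes were higher and 4.53% lower. In responders against FSL vehicle 2 were higher and 3 lower (4.61% and 9.17% of all genes), and in non-responders against FSL vehicle 2 were higher and 0 lower (1.89% and 2.32%). In responders against non-responders 0 were higher and 1 lower (1.18% and 1.96% of all genes), and in all FSL-line groups against FRL vehicle 0 and 1 (3.8% and 2.86%). The medians were -0.12, 0.09, 0.04, -0.02 and -0.06 in that order.

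Slc12a7, a potassium-chloride cotransporter, had 14.7, 5.33 and 5.94 CPM in responders, 19.4, 12.3 and 12.7 CPM in non-responders, 12, 29.7 and 48.2 CPM in FSL vehicle and 8.88, 10.4 and 6.47 CPM in FRL vehicle. It gave 1.80 ± 0.50 in FSL vehicle against FRL vehicle and -1.79 ± 0.49 in responders against FSL vehicle (adjusted edgeR p 0.245 and 0.266). DESeq2 called both (adjusted p 0.0273 and 0.0277), as did edgeR without FSL vehicle 1 (2.17 and -2.16, adjusted p 0.0343 and 0.0306), and with the meningeal covariate the values were 0.74 and -0.56. Sgk1, a kinase that raises the surface level of several channels, had 223, 320 and 214 CPM in responders, 298, 274 and 309 CPM in non-responders, 187, 174 and 191 CPM in FSL vehicle and 199, 237 and 203 CPM in FRL vehicle. Both LAC groups lay above FSL vehicle without overlap, at 0.46 ± 0.14 in responders (0.24 without responder 2) and 0.68 ± 0.14 in non-responders (adjusted edgeR p 0.266 and 0.976), and DESeq2 called the non-responder value (adjusted p 0.0410). Slc12a5, the chloride extruder of mature neurons, ran from 405 to 673 CPM with all groups overlapping.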

How the data were processed

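Files hold raw counts per gene symbol deposited by the authors, 1 file per library, with no normalization. The submitters' processing notes list build rn5, HTSeq 0.6.1, TopHat2 2.0.9, edgeR 3.12.0, Trimmomatic 0.33 and FastQC 0.11.3. Not given in the sources used here were the annotation and the strand setting. The 5 summary lines stayed out of library sizes: reads in no gene were 47.7% to 52.7% of the reads in a file, ambiguous ones 0.0756% to 0.106%, and those with several alignments 24.3% to 28.4%. No 2 libraries were identical. Per the labels, replicates are biological.

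edgeR 4.0.16 (R 4.3.3) used TMM factors, its default expression filter by group and 1 robust quasi-likelihood model, with a mean for each group, over the 12 libraries. Tests were two-sided, adjusted over 11750 genes. A standard error is the size of the log2 fold change over the square root of F. The biological coefficient of variation was 0.178. CPM use TMM-scaled gene counts. Covariates were mean log2 CPM of a marker list. Summed meningeal markers of all responders lay below those of all non-responder and FSL vehicle libraries. A value with the meningeal covariate therefore cannot fully part that marker level from group. DESeq2 1.42.0, limma-voom (limma 3.58.1), other scalings and filters, and leaving out libraries were alternatives. The fit was checked on simulated counts. Members, lists and alternatives were chosen with earlier results of these data known. Genes were named for smallest p (8 members and 3 partners per comparison), highest level within a subfamily, widest range, nearness to the cut, or a known role; Kcna3, Kcna5, Kcnq1 and Slc12a5 were named after their values were seen. By the rule used here, correlations all above 0.1, same-numbered libraries deviated together only between non-responders and FSL vehicle (0.212 to 0.581). Non-responder 2 correlated more with FSL vehicle 3 (0.318) than with FSL vehicle 2 (0.212). Responder 1 and FRL vehicle 2, of unlike number, reached 0.356. The labels state no pairing, and these correlations do not establish that the numbers mark pairs. RefSeq on GRCr8 gave promoters, gene order and 1 synonym, and all 75 members matched it. A few members are counted but not reported here by name.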

Additional observations from a re-analysis of the deposited data

How the results depend on the processing

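No tested member passed the adjusted threshold of 0.05 in any of the 6 tests with other scaling, other filters, DESeq2, limma-voom, marker covariates, a threshold of 0.10 or any library left out, with 1 exception. Leaving out 1 library gave 0 to 1 members in FSL vehicle against FRL vehicle, the 1 being Kcnk5 without FSL vehicle 1. Kcnk5 would not be a member without its FSL vehicle libraries. With the unadjusted threshold the counts were 9 in FSL vehicle against FRL vehicle, 10 in responders against FSL vehicle, 3 in non-responders against FSL vehicle, 3 in responders against non-responders, 7 in all FSL-line groups against FRL vehicle and 5 for any difference. With the replicate block the adjusted count stayed at 0 in each of these tests. For non-responders against FSL vehicle, the edgeR count at an unadjusted p of 0.05 was 3 without a block. It was 5 with the replicate block in the fit of 12 libraries and 7 in a block fit of these groups only. For responders against FSL vehicle that count ranged from 4, without FSL vehicle 3, to 17, without responder 1, and for FSL vehicle against FRL vehicle it was 15 with the granule cell covariate. Of 55 fold changes recomputed for named genes, 43 moved by over 1.5 times, turned sign or crossed the adjusted threshold in some setting. Among these, 2 turned sign. Kcnh2 in responders against non-responders ranged from -0.0503, without responder 1, to 0.876, with the meningeal covariate (0.834 without responder 3). It was -0.0497 without the 2 libraries low in Prox1, responder 1 and FRL vehicle 2. Kcnk2 in responders against FSL vehicle was 0.00913 with the meningeal covariate. The cause was not tested. Kcnk5, Kcnj8, Kcnmb2, Kcne1l and Kcnrg lie within a few CPM, where 3 counts are 0.369 to 0.508 CPM, so small differences were not detectable at this depth.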

Other observations

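Neighbouring Kcn genes did not always share a pattern. In the RefSeq order Kcna5, Kcna1 and Kcna6 stand side by side on chromosome 4, and in FSL vehicle against FRL vehicle they gave log2 fold changes of 0.82, -0.25 and -0.31. Kcna3 and Kcna2 are neighbours on chromosome 2 and gave 0.23 and -0.50. Kcnj9 and Kcnj10, neighbours on chromosome 13, both averaged lower in FSL vehicle than in FRL vehicle, with overlap. Kcnj16 and Kcnj2 are neighbours on chromosome 10. In responder 1 Kcnj16 was at 46.7 CPM, its highest library, while Kcnj2, a strong inward rectifier, was at 9.19 CPM within its range of 5.20 to 11.2 CPM. These differences between neighbours were not tested.

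Some Kcn symbols outside the 75 reached 1 CPM in 1 or 2 libraries. Kcnk15 was at 1.84 CPM in responder 1 and at most 0.533 CPM elsewhere. Kcnn4, the intermediate-conductance channel of blood and immune cells, was at 3.50 CPM in FSL vehicle 3 and at most 1.03 CPM elsewhere. Kcnmb1, the BK beta subunit of smooth muscle, was at 1.96 CPM and Kcne4, a MinK-type subunit, at 2.38 CPM in FSL vehicle 3, their highest library. Kcne4 was also at 1.23 CPM in responder 1. FSL vehicle 3 was also the highest library for the summed markers of endothelial cells and pericytes (1375 CPM) and of blood cells (924 CPM), whose part in these values was not tested.

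The members' promoters had a median G and C content of 64.4%, against 60.4% for genes that pass the same cut and 51.2% for all 33469 promoters in the table. Their median number of CpG sites was 13.5, below the 16 of genes that pass the cut and above the 5 of all promoters.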
